A study of Mus musculus with 9 samples.

Results

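The genes of cholesterol and fatty acid synthesis were followed across long-term hematopoietic stem cells (LT-HSCs) of 3 genotypes that differ in class IA PI3K. The set held 33 genes, listed by symbol as enzymes and regulators of lipid synthesis under the control of SREBP. No measured value entered that rule, although the set was chosen with earlier results of these data known. Each symbol was found in 1 row of the count table, so the set was 33 of its 47643 genes. All 33 passed the filter on low counts, which kept 18205 genes. By role they comprised 7 genes of the mevalonate and isoprenoid steps, 11 of the squalene and sterol steps, and 5 for the SREBP factors and the proteins that control them. A further 4 supply acetyl-CoA or build fatty acids, 4 elongate or desaturate them, and Stard4 (a sterol carrier) and Lpin1 (a phosphatidate phosphatase) stood alone.

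Cholesterol and fatty acids are both built from cytosolic acetyl-CoA, the former through mevalonate, isoprenoids and squalene, and the latter through malonyl-CoA. The SREBP transcription factors are made as precursors in the membrane of the endoplasmic reticulum. When sterols are scarce, the escort protein SCAP carries them to the Golgi, where proteases release the part that enters the nucleus, and when sterols are plentiful, INSIG proteins hold SCAP back. AKT and mTORC1, which act downstream of PI3K, are known to favor SREBP activity, and Insig1 is itself a classic SREBP target. Stem cells draw on the pathway for membranes when they divide and for the isoprenoid anchors of small GTPases.

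Whole bone marrow was transplanted into lethally irradiated recipients, which received pIpC by 2 injections of 250 μg given 48 hours apart, and donor-derived LT-HSCs were sorted 4 weeks later as lineage-negative cells with cKit, Sca1 and CD150 but without Flk2 or CD48 on their surface. TKO donors carried lox-lox alleles of Pik3ca and Pik3cb, a germline Pik3cd-/- deletion and the Mx1-Cre transgene. The δKO controls were littermates with the same lox-lox and Pik3cd-/- alleles but no Cre, and the WT controls carried Mx1-Cre and no altered PI3K allele. All were on the C57BL/6 strain, all received pIpC, and the labels give no ages. The Mx1 promoter answers to interferon and is not restricted to stem cells, and the δKO group had no Cre to match it. Each genotype had 3 libraries, although by the protocol the marrow of 7 recipients was combined for each group ahead of the sort. The p-values therefore measure the spread between libraries, which may be partly technical. The δKO column of the count table whose number stands in no label is called the unnumbered δKO library.

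The libraries held from 31300343 to 60386097 counts and detected from 18180 to 22703 genes. Xist ranged from 32.1 to 6390 CPM (counts scaled to library size) between libraries. It was at 3220 CPM or more in WT replicate 2, in δKO replicates 1 and 2, and in TKO replicates 1 and 2. The other libraries of each genotype were at 59.5 CPM or less, so WT held a smaller share of Xist-high libraries than δKO or TKO. Pik3cd was lower in the TKO libraries (71.1, 73.1 and 73.4 CPM) and δKO libraries (38.4 to 91.2 CPM) than in WT (98.1 to 138 CPM), while Pik3ca (52.8 to 67.9 CPM in TKO and 45.7 to 65.0 CPM in WT) overlapped. Pik3cb was at 25.4 to 33.9 CPM in TKO, under every WT library (44.6 to 63.5 CPM), and at 33.2 to 101 CPM in δKO. Its log2 fold change was -0.86 against WT (SE 0.385, edgeR adjusted p = 1) and -1.13 against δKO (SE 0.387, edgeR adjusted p = 0.465). Gene counts do not resolve the floxed exons, so a level of the whole gene is no direct check of excision. All 8 listed HSC genes were detected in each genotype, as were Kit, Ly6a and Slamf1, but Flt3 and Cd48, absent from the sorted surface, had transcripts in every library (7.05 to 115 CPM and 5.82 to 23.1 CPM). Transcripts of 10 neutrophil genes summed to 4940 to 11700 CPM in WT, 261 to 11500 CPM in δKO and 153 to 3000 CPM in TKO. The sums did not rest on the same genes in each library. Mpo alone was at 8950 CPM in WT replicate 1, while in WT replicate 3 Ngp (3840 CPM) lay above Mpo (1690 CPM). A sum is therefore no measure of neutrophil content, and in sorted bulk cells fewer cells of a type and less RNA per cell cannot be told apart. Replicate 1 of δKO stood apart: among 10775 genes that averaged 5 CPM or more, 11.2% lay more than 4-fold under the median of the other libraries there, against 0.399% to 5.85% in the others. The main counts against δKO, and the fold changes of several named members, are therefore given with and without that library.

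The promoters of the set were searched for short sequence elements that the list did not use. RefSeq promoter windows (GRCm38.p6, from 250 bases before to 50 after the start) were found for 27 of the 33 members. The CCAAT box, the letters CCAAT on either strand, lay in the windows of 21 of the 27 (77.8%), compared with 41.1% of all genes with a window and 42.3% of those tested here. The GC box GGGCGG lay in 22 (81.5%), compared with 38.2% of all genes and 64.9% of those tested. The E-box CACGTG, which reads the same on both strands and which SREBP factors can also bind, lay in 5 (18.5%): Hsd17b7, Sc5d, Dhcr7, Scap and Insig1. Among tested genes 11.3% held it. The sterol regulatory element form TCACNCCAC lay in 1 member, Hmgcs1 (3.7%, and 1.4% of tested genes). A match of letters is a description of these windows and not a site of binding.

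Stretches of 200 bases from 4 of these windows are shown from 180 bases before to 20 after the RefSeq start, 5′ to 3′ on the strand of the gene, with the letters of these elements (on either strand) in capitals. Hmgcs1, the synthase before the first committed step of sterol synthesis (chr13:119690171-119690370, plus strand), was chosen as the only holder of the sterol regulatory form. Mvd (chr8:122443403-122443602, minus strand), Elovl6 (chr3:129532206-129532405, plus strand) and Fads2 (chr19:10101484-10101683, minus strand) are genes whose values are given in detail beside TKO and WT.
Hmgcs1: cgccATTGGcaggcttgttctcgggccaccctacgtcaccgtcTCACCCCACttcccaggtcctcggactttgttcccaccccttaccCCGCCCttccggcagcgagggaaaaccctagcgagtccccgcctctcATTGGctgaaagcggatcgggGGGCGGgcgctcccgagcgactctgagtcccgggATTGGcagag
Mvd: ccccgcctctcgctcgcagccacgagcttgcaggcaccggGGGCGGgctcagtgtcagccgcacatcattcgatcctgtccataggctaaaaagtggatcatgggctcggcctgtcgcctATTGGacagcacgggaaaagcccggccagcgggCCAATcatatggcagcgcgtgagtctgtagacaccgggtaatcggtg
Elovl6: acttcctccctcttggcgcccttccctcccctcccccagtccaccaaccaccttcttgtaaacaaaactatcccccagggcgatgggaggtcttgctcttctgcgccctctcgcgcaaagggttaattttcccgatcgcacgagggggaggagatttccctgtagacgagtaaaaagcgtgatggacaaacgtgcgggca
Fads2: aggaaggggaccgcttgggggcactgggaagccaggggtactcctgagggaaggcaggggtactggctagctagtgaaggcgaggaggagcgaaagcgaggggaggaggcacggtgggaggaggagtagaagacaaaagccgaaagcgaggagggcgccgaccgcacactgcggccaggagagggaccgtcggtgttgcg
The Hmgcs1 stretch holds TCACCCCAC together with CCAAT and GC boxes, and the Mvd stretch holds CCAAT boxes and a GC box. The Elovl6 stretch holds none of these letters, and the only GC box in the Fads2 window lies outside the printed bases.

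In WT LT-HSCs the members spanned a wide range of levels. Levels of different genes were compared in TPM, computed from the counts and the length of all exons. Scd2, the stearoyl-CoA desaturase that makes monounsaturated fatty acids, was the highest at 89.5 ± 16.9 TPM (SD, n = 3). Acly, which splits citrate into cytosolic acetyl-CoA, followed at 69.9 ± 18 TPM, and Srebf2, the SREBP gene of sterol synthesis, at 65.1 ± 15 TPM. The library ranges of these 3 genes overlapped, so their order is not settled, but all lay above Fasn, the fatty acid synthase, at 38.2 ± 3.92 TPM. Insig1 (33 ± 4.12 TPM) and Stard4 (31.2 ± 9.55 TPM) overlapped with Fasn.

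Srebf1, the SREBP gene of fatty acid synthesis, was at 19.7 ± 1.86 TPM in WT, under every library of Srebf2. Between 23.0 and 10.2 TPM lay Fads1, Fads2, Srebf1, Cyp51, Dhcr7, Scap, Sqle, Pmvk, Nsdhl, Acat2, Elovl6, Fdft1, Ebp and Acaca, in this order, with overlapping ranges between neighbors. The lower part held Hmgcs1 (9.57 ± 1.78 TPM), Mvd, Idi1, Hsd17b7, Sc5d, Lss, Insig2, Msmo1, Acss2, Lpin1, Tm7sf2, Mvk and, lowest by its mean, Fdps (1.25 ± 1.05 TPM). The library ranges of Tm7sf2, mevalonate kinase (Mvk) and farnesyl diphosphate synthase (Fdps) at the low end overlapped, so their order is not settled either. Fatty acid enzymes stood in all parts of the order, from Scd2 to Acss2. The Fdps value is uncertain, because 26.7% of its exon bases are shared with the overlapping gene Gm43738 on the same strand, and 12.1% of those of Tm7sf2 with Vps51. The amplification kit did not keep the strand, so the 18.3% of Fdft1 exon bases that face Ctsb on the opposite strand are also uncertain. The same holds for 13.2% of Scap exon bases, which face 5830462I19Rik, and for 12.1% of those of Hmgcs1, which face Gm48342.

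**Figure D1:**
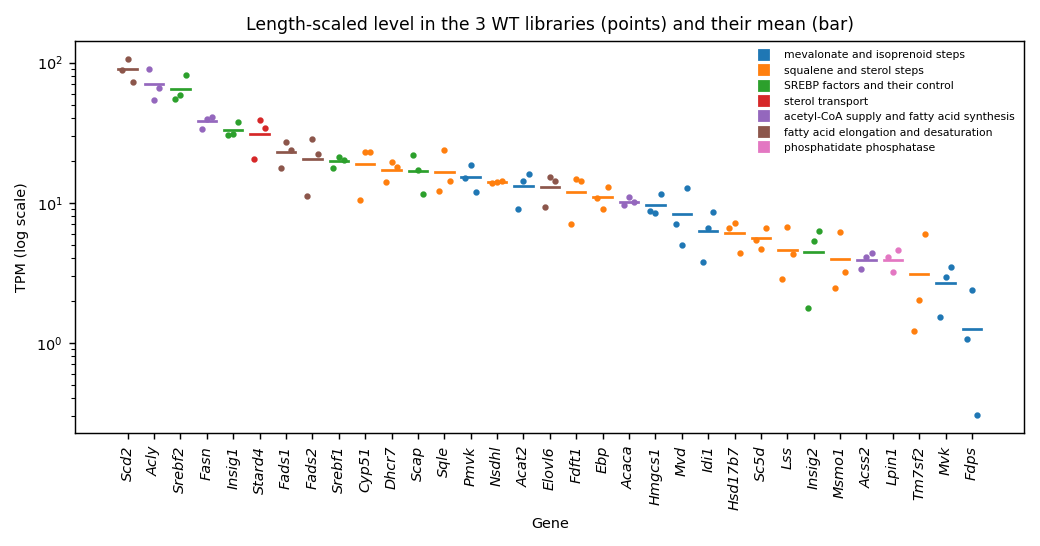
Level of each of the 33 genes in WT LT-HSCs, as TPM on a log axis, with points for the 3 WT libraries, a bar for their mean, and color for the role of the gene. Scd2, Acly and Srebf2 are highest, with means from 65.1 to 89.5 TPM, and Fdps is lowest at 1.25 TPM.

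The members varied between WT libraries about as much as other genes did. Their median coefficient of variation was 22.4% in WT and 24.1% in TKO, against 21.6% and 27.1% for the 10775 genes that averaged 5 CPM or more. In δKO it was 60.7%, against 46.5%. Replicate 1 of δKO held the lowest level of 12 members, where 24.4% of those 10775 genes had theirs. It also held the highest level of 12 others, for which no share over all genes was computed. In that library 9 members were more than 4-fold under the median of the other libraries, as were 11.2% of the 10775 genes. Of these 9, 8 were sterol genes (Hmgcs1, Lss, Tm7sf2, Msmo1, Nsdhl, Hsd17b7, Ebp and Sc5d) and the ninth was Insig2. Mvd alone was more than 4-fold above that median, as were 5.82% of the 10775 genes.

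Of the sterol enzymes there, Sc5d, Tm7sf2 and Ebp had under 20 counts (6, 6 and 17), while Cyp51 (86.0 CPM) was at its highest of all 9 libraries and Dhcr7 (39.4 CPM) was close to δKO replicate 2 (38.4 CPM). Sc5d, the sterol desaturase that precedes the last step of cholesterol synthesis, had 6 counts (0.239 CPM) in δKO replicate 1 and 389 to 923 counts in the other libraries. Ebp, the sterol isomerase, had 17 counts there and 182 to 804 elsewhere. At the same time Srebf1 (133 CPM), Scap (186 CPM), Insig1 (117 CPM), Acaca (166 CPM) and Elovl6 (95.5 CPM) were at their highest of all 9 libraries. This library also had the fewest genes detected and the lowest median count of a tested gene (188, against 207 to 475). The part of library quality in these values was not tested.

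**Figure D2:**
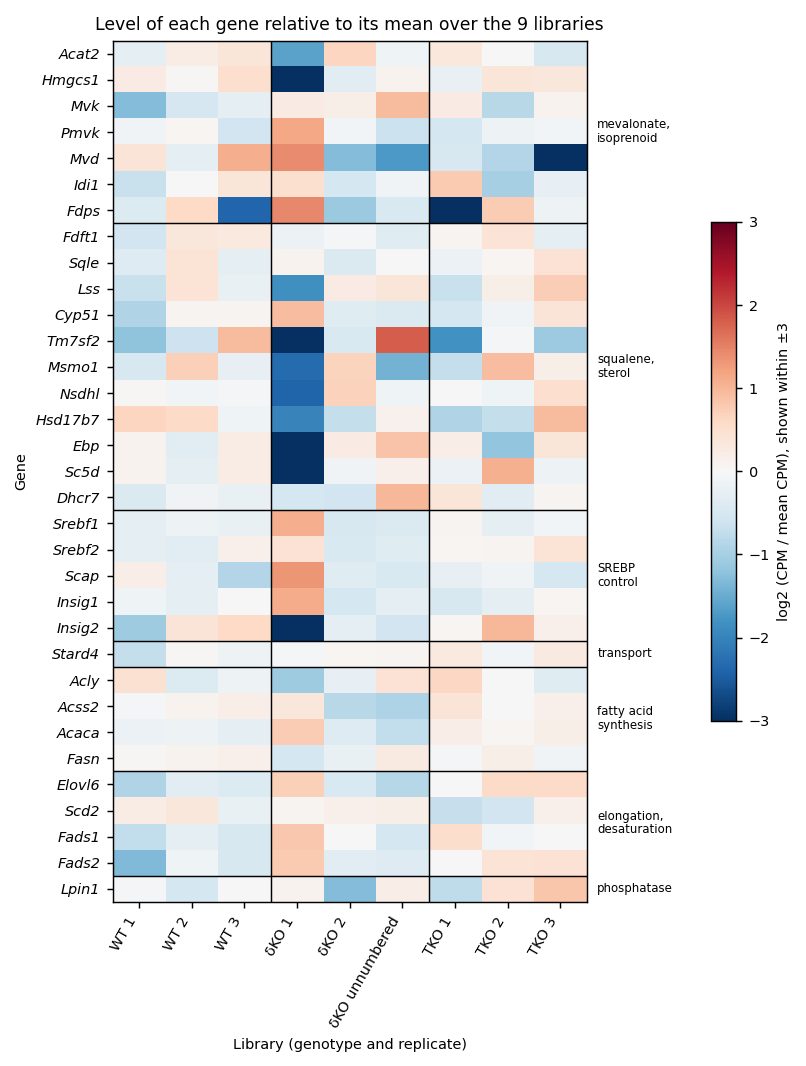
Level of each gene in each of the 9 libraries, as log2 of CPM over the gene's mean of all libraries, with colors limited to ±3. Columns are libraries by genotype and rows are genes by role. The δKO 1 column holds most of the extreme colors, with 12 genes at their lowest and 12 at their highest, while WT and TKO columns are pale for most genes.

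TKO and WT LT-HSCs were compared to ask whether loss of class IA PI3K activity went with lower transcript levels of this pathway. No member passed the threshold (edgeR quasi-likelihood test, adjusted p under 0.05 and over 2-fold), and 1 gene in all (0.00549% of 18205) did. At an unadjusted p under 0.05 there was 1 member, Elovl6, or 1 of 33, beside 4.19% of all genes. DESeq2 called none of the members either, with 0.649% of all genes called over the 9 libraries and 3.04% over the 6 libraries compared, and it had 1 and 5 members at an unadjusted p under 0.05, beside 7.77% and 13.9% of all genes with an adjusted p. The fitted level was higher in TKO for 22 members and lower for 11, and 51.2% of all genes were higher. The median log2 fold change was 0.14 over the members and 0.02 over all genes.

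The libraries of TKO and WT did not overlap for 4 members that were higher in TKO (6.88% of all genes) and for 1 that was lower (7.47%). The 4 higher members all belonged to the 8 genes of fatty acid synthesis, elongation and desaturation. They were Acaca, Elovl6, Fads1 and Fads2. The lower one was Mvd.

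Elovl6 encodes the elongase that lengthens palmitate to stearate (chr3:129532355-129638495, plus strand, mm10). Its levels were 31.3, 45.9 and 43.4 CPM in WT, 95.5, 42.2 and 32.3 CPM in δKO, and 58.3, 87.0 and 87.2 CPM in TKO. Every TKO library lay above every WT library, while the δKO libraries spread over both. The log2 fold change of TKO against WT was 0.95 (SE 0.403, 95% interval 0.07 to 1.83, edgeR adjusted p = 1). It stayed above 0 in all 21 alternatives, from 0.79 to 1.11, and the adjusted p ranged from 0.0289 (DESeq2 on the 6 libraries compared) to 1. In that DESeq2 fit Elovl6 passed on its adjusted p but not on its size, so it was not called. Leaving out WT replicate 1, 2 or 3 or TKO replicate 2 or 3 brought the unadjusted edgeR p above 0.05, to between 0.0545 and 0.119 (adjusted p = 1 in each).

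Fads1 and Fads2 encode the desaturases that make long polyunsaturated fatty acids, and both lie on chromosome 19. Fads1 was at 44.4, 61.7 and 53.7 CPM in WT and 108, 70.7 and 75.7 CPM in TKO, with a log2 fold change of 0.67 (SE 0.352, edgeR adjusted p = 1). Fads2 was at 19.3, 43.7 and 34.5 CPM in WT and 48.5, 63.7 and 65.2 CPM in TKO, with a log2 fold change of 0.86 (SE 0.406, edgeR adjusted p = 1). In δKO, replicate 1 was again the highest (131 and 82.3 CPM), and the other δKO libraries (51.5 and 74.2 CPM for Fads1, 36.9 and 38.4 CPM for Fads2) lay within the WT range for Fads2, while the 74.2 CPM of Fads1 in δKO replicate 2 lay above every WT library and inside the TKO range.

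Acaca encodes acetyl-CoA carboxylase, which makes malonyl-CoA and is rate-limiting for fatty acid synthesis. It had a narrow spread in WT (86.3, 87.1 and 80.3 CPM) and in TKO (112, 102 and 110 CPM), and these did not overlap, but the difference was small (log2 fold change 0.35, 95% interval -0.41 to 1.12, edgeR adjusted p = 1). The standard error is shared with δKO, where Acaca ran from 57.9 to 166 CPM. Scd2 had the opposite sign, at 254, 273 and 185 CPM in WT and 134, 145 and 242 CPM in TKO, with overlapping libraries (log2 fold change -0.45, 95% interval -1.04 to 0.14). The other genes of acetyl-CoA supply and fatty acid synthesis were not called either. Fasn differed by -0.09 (95% interval -0.62 to 0.44), Acly by 0.14 and Acss2, the acetyl-CoA synthetase that uses acetate, by 0.10 on the log2 scale.

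None of the SREBP genes was called between TKO and WT. Srebf1 was at 51.8, 56.0 and 53.3 CPM in WT, 133, 44.2 and 46.1 CPM in δKO, and 65.3, 50.4 and 58.3 CPM in TKO. Srebf2 was at 205, 196 and 276 CPM in WT, 335, 181 and 194 CPM in δKO, and 257, 262 and 331 CPM in TKO. For both, the WT and TKO libraries overlapped, and δKO replicate 1 was the highest of all 9. The 95% interval of TKO against WT ran from -0.77 to 0.99 for Srebf1 and from -0.28 to 0.93 for Srebf2 on the log2 scale (log2 fold change 0.33, SE 0.277, edgeR adjusted p = 1), so a fall of Srebf2 by as much as 2-fold lay outside it. The Srebf2 value was 0.20 without TKO replicate 3 and 0.49 without WT replicate 3.

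Scap, the SREBP escort, was at 84.8, 60.2 and 40.4 CPM in WT, 186, 57.1 and 54.1 CPM in δKO, and 62.7, 69.2 and 51.0 CPM in TKO. Insig1, the retention factor that SREBP induces, was at 49.2, 44.6 and 54.5 CPM in WT, 117, 37.8 and 44.1 CPM in δKO, and 38.6, 44.4 and 56.2 CPM in TKO. WT and TKO overlapped for both, with log2 fold changes of -0.02 and -0.09. Insig2, the other retention factor, was lower in level at 3.21, 8.72 and 10.2 CPM in WT, 0.598, 5.52 and 4.49 CPM in δKO, and 6.97, 13.3 and 7.45 CPM in TKO. Its TKO libraries overlapped with WT but lay above every δKO library.

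Among the 18 genes that lead from acetyl-CoA to cholesterol, the fitted level was higher in TKO for 11 and lower for 7, with a median log2 fold change of 0.09. Mvd, the decarboxylase that makes isopentenyl diphosphate, was at 6.88, 4.36 and 11.1 CPM in WT, 13.9, 2.14 and 1.58 CPM in δKO, and 3.73, 2.85 and 0.656 CPM in TKO. All TKO libraries lay under all WT libraries, and the δKO libraries lay on both sides, with 1 above WT and the others among the TKO values. The log2 fold change was -1.63 with a wide error (SE 1.01, 95% interval -3.84 to 0.58, edgeR adjusted p = 1), and TKO replicate 3 had only 31 counts of it. Hmgcs1, which makes HMG-CoA, was at 20.9, 18 and 24.9 CPM in WT, 1.79, 14.1 and 19.0 CPM in δKO, and 15, 22.6 and 22.5 CPM in TKO, with WT and TKO overlapping.

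Of the 11 genes of the squalene and sterol steps none was called between TKO and WT. The fitted level was higher in TKO for 8 and lower for 3, with log2 fold changes from -0.81 (Tm7sf2, a sterol reductase) to 0.33 (Sc5d). None of their libraries separated. Sqle, the squalene epoxidase that is rate-limiting late in the pathway, was at 44.6 ± 14.5 CPM in WT and 50.0 ± 10.8 CPM in TKO (95% interval -0.56 to 0.89 on the log2 scale). Dhcr7, the last reductase, had the smallest p of its branch but for no clear difference (48.1 ± 5.27 and 59.5 ± 13.9 CPM, log2 fold change 0.31, SE 0.417, edgeR adjusted p = 1). Stard4, which carries sterol between membranes, was at 83.5 ± 21.6 CPM in WT and 112 ± 15.9 CPM in TKO (log2 fold change 0.42, SE 0.261, edgeR adjusted p = 1). Lpin1 was at 18.5 ± 3.54 and 25.9 ± 12.5 CPM (log2 fold change 0.49, SE 0.526, edgeR adjusted p = 1). Leaving out 1 library moved the log2 fold change from 0.14 (without TKO replicate 3) to 0.82 (without TKO replicate 1) for Lpin1, from 0.13 (without TKO replicate 1) to 0.47 (without TKO replicate 2) for Dhcr7, and from 0.23 (without WT replicate 1) to 0.59 (without WT replicate 2) for Stard4. The means and SDs in this paragraph are over 3 libraries per genotype.

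The precision of the design bounds what was not seen. For 8 of the 33 members the 95% interval of TKO against WT lay within 2-fold both ways, as it did for 16.2% of all genes. These were Fdft1, Sqle, Srebf1, Srebf2, Insig1, Stard4, Acly and Fasn. For the other 25 the interval reached past 2-fold in at least 1 direction, with standard errors up to 1.28 (Fdps). The spread behind these intervals is shared with δKO, and without δKO replicate 1 the count was 15, beside 21.4% of all genes. Hmgcs1, Pmvk, Cyp51, Nsdhl, Scap, Acss2 and Acaca were then added to the 8.

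**Figure D3:**
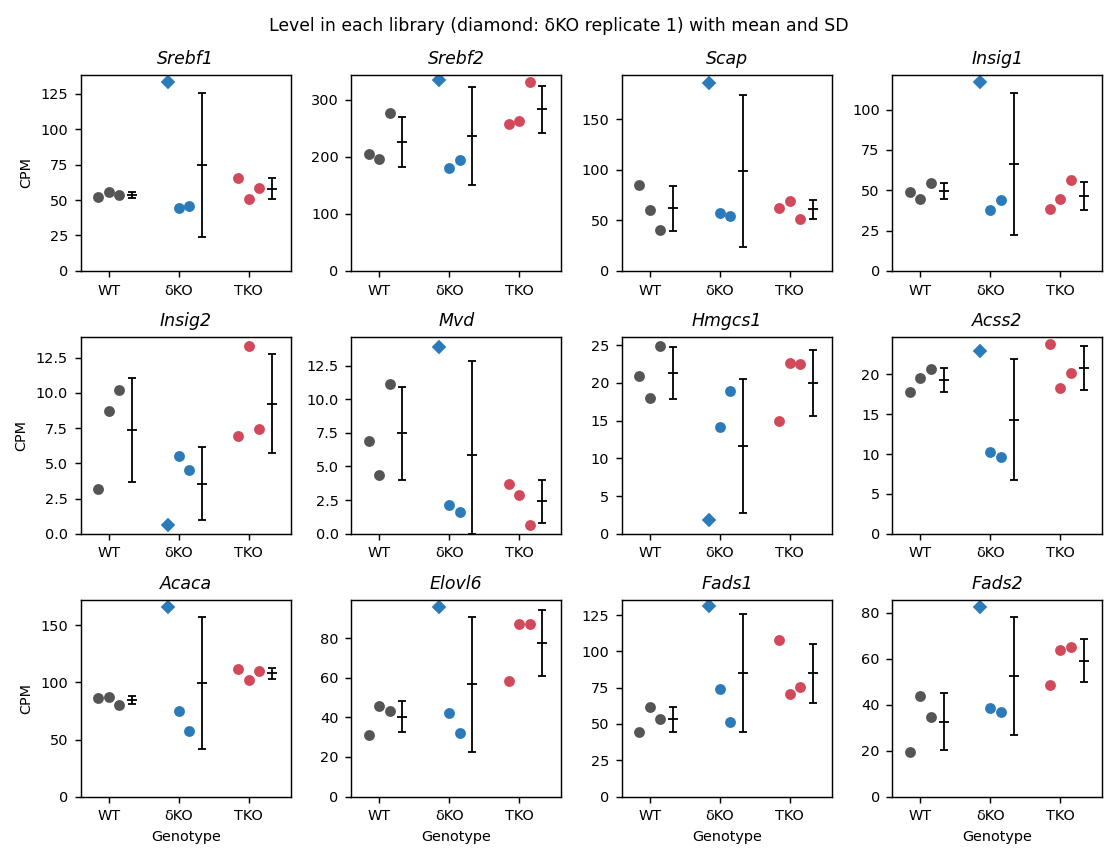
CPM in each library for 12 genes, with points for libraries, a diamond for δKO replicate 1, and a bar for the mean and SD of each genotype (cut at 0). The TKO points of Elovl6, Fads1, Fads2 and Acaca lie above all WT points and those of Mvd lie below them, while Srebf1, Srebf2, Scap and Insig1 overlap between WT and TKO.

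TKO LT-HSCs were next compared with δKO littermates, which asks what loss of P110α and P110β adds to loss of P110δ. These groups also differ in Mx1-Cre, which δKO lacked, and its part cannot be told apart. No member passed the threshold in edgeR, nor did any gene (0% of 18205), and no member had an unadjusted p under 0.05, beside 10.2% of all genes. DESeq2 called no member with all 9 libraries (3.06% of all genes called) or with the 6 libraries compared (1.51%), and none had an unadjusted p under 0.05 in either, beside 16.7% and 12.2% of all genes with an adjusted p. Fitted levels were higher in TKO for 20 members and lower for 13 (47.2% of all genes were higher), with a median log2 fold change of 0.13 over the members and -0.06 over all genes. This comparison shares the TKO libraries with the previous one. For 6 members (Sqle, Srebf2, Stard4, Acaca, Fasn and Fads1) the 95% interval lay within 2-fold, as for 13.1% of all genes. Without δKO replicate 1 there were also 6 (Srebf1, Scap, Insig1, Stard4, Acly and Fasn), beside 14.5%.

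The libraries of TKO and δKO did not overlap for 1 member, Insig2, which was higher in TKO (6.98% of all genes). Its log2 fold change was 1.38 (SE 0.854, edgeR adjusted p = 0.591), and 0.88 without δKO replicate 1. The lowest value of the set was that of Tm7sf2 (log2 fold change -1.31, SE 1.19, edgeR adjusted p = 0.726), which had 22.4 CPM in the unnumbered δKO library and 0.239 to 4.66 CPM in the other δKO libraries. Mvd followed at -1.28 (SE 1.00, edgeR adjusted p = 0.676). For the other roles the smallest p was that of Acss2 (log2 fold change 0.54, SE 0.460, edgeR adjusted p = 0.707), Scd2 (-0.45, SE 0.268, edgeR adjusted p = 0.576), Stard4 (0.14, SE 0.260, edgeR adjusted p = 0.886) and Lpin1 (0.51, SE 0.526, edgeR adjusted p = 0.770). Without δKO replicate 1 these were at 1.06, -0.48, 0.10 and 0.67, and without the unnumbered δKO library Acss2 was at 0.32. Leaving out TKO replicate 3 moved Scd2 to -0.77 and Lpin1 to 0.15, leaving out TKO replicate 1 moved Stard4 to 0.07 and Lpin1 to 0.84, and leaving out TKO replicate 2 moved Stard4 to 0.25. The signs of Mvd and Tm7sf2 turned when a single library was left out: without δKO replicate 1 Mvd was at 0.37, and without the unnumbered δKO library Tm7sf2 was at 0.57.

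Without δKO replicate 1 the fitted level was higher in TKO for 24 members and lower for 9 (53.5% of all genes were higher), with a median log2 fold change of 0.30 over the members and 0.07 over all 19583 genes tested, so the median of all genes moved up as well. At an unadjusted p under 0.05 there were 4 members, all higher in TKO, beside 12.2% of all genes in either direction and 5.49% that were higher, and none was called (smallest adjusted p 0.286). They were Elovl6 (log2 fold change 1.05, SE 0.312, edgeR adjusted p = 0.286), Acaca (0.70, SE 0.233), Acss2 (1.06, SE 0.389) and Srebf2 (0.60, SE 0.238). Over all 9 libraries Elovl6 was at 0.45 (SE 0.400), Acaca at 0.12 (SE 0.349), Acss2 at 0.54 (SE 0.460) and Srebf2 at 0.26 (SE 0.277). Acss2 had been at 17.8, 19.5 and 20.7 CPM in WT, 23.0, 10.2 and 9.58 CPM in δKO, and 23.8, 18.3 and 20.2 CPM in TKO, so that its remaining δKO libraries lay under all others. The libraries did not overlap for 7 members, each higher in TKO, namely Srebf1, Srebf2, Insig2, Acss2, Acaca, Elovl6 and Fads2, beside 12.7% of all genes in that direction.

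DESeq2 without the same library called Acss2 (log2 fold change 1.06, SE 0.262, adjusted p = 0.00402) and Elovl6 (log2 fold change 1.05, SE 0.325, adjusted p = 0.0321), beside 4.91% of all genes. In the TKO against WT comparison the same fit called no member (1.99% of all genes called). In edgeR without δKO replicate 1, TKO against WT had 3 members with an unadjusted p under 0.05, all higher in TKO (3.33% of all genes, and 7.61% in either direction) and all of the fatty acid branches (Elovl6, Fads1 and Fads2), with a smallest adjusted p of 0.433. With only 2 δKO libraries left, these calls rest on a small group whose spread was borrowed from the other genotypes.

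**Figure D4:**
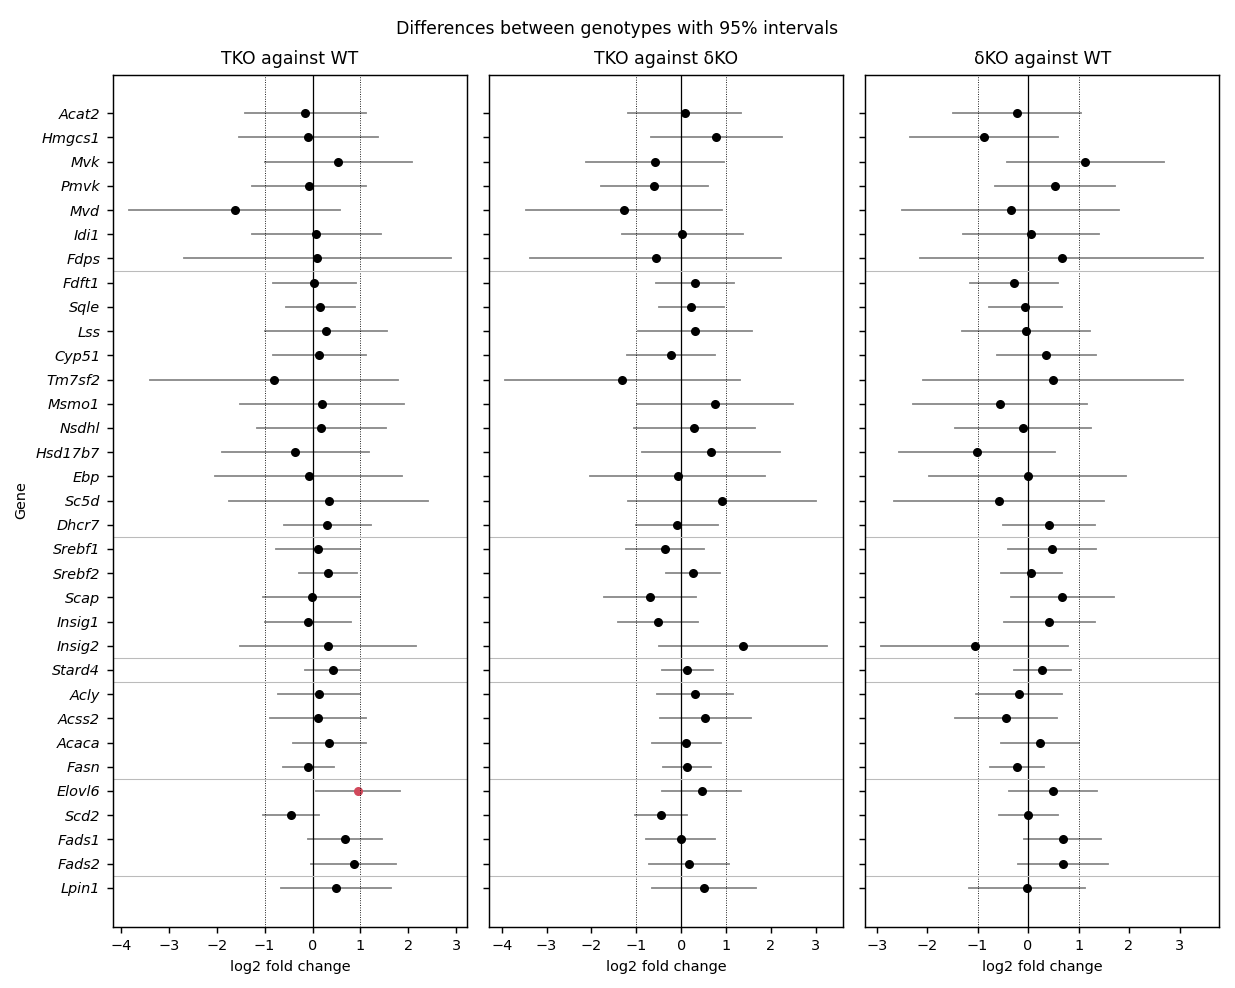
Log2 fold change of each gene with its 95% interval in the 3 comparisons, with dotted lines at 2-fold. Elovl6 in TKO against WT, in red, is the only gene whose interval leaves out 0, and intervals are widest for Fdps, Tm7sf2 and Mvd.

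Loss of P110δ was read from δKO against WT, which shares libraries with both comparisons above. These groups also differ in Mx1-Cre, which only WT carried, and in the lox-lox alleles, which only δKO carried. The parts of these differences cannot be told apart. No member passed the threshold in edgeR (0.00549% of all genes did) and none had an unadjusted p under 0.05, beside 7.01% of all genes. DESeq2 called none either, with 1.03% of all genes called over 9 libraries and 0.988% over the 6 compared, and had 1 member at an unadjusted p under 0.05 in each, beside 12.4% and 10.3% of all genes with an adjusted p. The fitted level was higher in δKO for 16 members and lower for 17 (52.8% of all genes were higher), and the median log2 fold change was 0 to 2 decimals. For 6 members (Sqle, Srebf2, Stard4, Acaca, Fasn and Scd2) the 95% interval lay within 2-fold, as for 14.5% of all genes, and without δKO replicate 1 for 13 members, beside 17.5%.

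Mvk, mevalonate kinase, was the 1 member whose libraries did not overlap, and it was higher in δKO (4.13% of all genes). It was at 2.13, 3.71 and 4.34 CPM in WT, 6.26, 5.89 and 10.2 CPM in δKO, and 6.19, 2.96 and 5.61 CPM in TKO, so the TKO libraries spanned parts of both control ranges. The log2 fold change was 1.13 (SE 0.710, edgeR adjusted p = 0.737). Hsd17b7, a sterol ketone reductase, was the lowest sterol gene at -1.02 (SE 0.706, edgeR adjusted p = 0.766), and leaving out 1 δKO library moved it from -0.63 (without replicate 1) to -1.62 (without the unnumbered library). Fads1 had the smallest p (log2 fold change 0.68, SE 0.352, edgeR adjusted p = 0.699) and was at 0.24 without replicate 1. Scap (0.68, SE 0.465, edgeR adjusted p = 0.762) rested on replicate 1 and was at -0.15 without it.

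Without δKO replicate 1, 12 members were higher and 21 lower than in WT, and all 5 SREBP genes were lower, with a median log2 fold change of -0.27 for those 5 and -0.05 over all genes. The lowest sterol gene was then Mvd at -2.0 (SE 0.954, edgeR adjusted p = 0.782), which was at -0.35 (SE 0.985) over all 9 libraries. The libraries did not overlap for 6 lower members (12.4% of all genes), namely Mvd, Srebf1, Srebf2, Insig1, Acss2 and Acaca, and for 3 higher members (8.89%), namely Mvk, Ebp and Stard4. Acss2 was the 1 member with an unadjusted p under 0.05 (log2 fold change -0.96, SE 0.388, edgeR adjusted p = 0.782), beside 2.74% of all genes lower at that p and 5.65% in either direction. DESeq2 without that library called no member by both criteria (0.815% of all genes). Acss2 passed on its adjusted p there (0.0434) but not on its size (log2 fold change -0.94).

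Acss2 (log2 fold change -0.44, SE 0.460, edgeR adjusted p = 0.855), Stard4 (0.28, SE 0.261, edgeR adjusted p = 0.826) and Lpin1 (-0.02, SE 0.525, edgeR adjusted p = 1) had the smallest p of their roles over all 9 libraries. Without δKO replicate 1 the latter pair was at 0.32 and -0.19, and Stard4 ran from 0.09 without WT replicate 1 to 0.45 without WT replicate 2. Acss2 was at -0.22 without the unnumbered δKO library.

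The X-linked members, Nsdhl and Ebp, overlapped between all genotypes. Nsdhl, a sterol dehydrogenase, was at 20.5, 18.9 and 19.2 CPM in WT, 3.75, 32.2 and 18.3 CPM in δKO, and 20.0, 18.2 and 28.2 CPM in TKO. Ebp was at 13.0, 9.74 and 14.1 CPM in WT, 0.678, 14.3 and 21.7 CPM in δKO, and 13.9, 5.29 and 15.6 CPM in TKO. The lowest value of both was that of δKO replicate 1.

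Levels of whole branches were summed up in each library as the mean over genes of log2 CPM centered on the 9 libraries. The 8 genes of the fatty acid branches averaged -0.13 ± 0.10 in WT (SD, n = 3), with -0.05 ± 0.31 for δKO and 0.18 ± 0.03 for TKO. The TKO libraries lay above every WT library and between the δKO libraries, which were at 0.31 for replicate 1 and at -0.22 and -0.25 for the others. The 18 sterol genes were at 0.17 ± 0.21 in WT, -0.22 ± 0.67 in δKO and 0.05 ± 0.23 in TKO, with -0.99 in δKO replicate 1. The 5 SREBP genes were at -0.03 ± 0.12, -0.10 ± 0.31 and 0.13 ± 0.09. No test was made of these means, since the genes were chosen with results of these data known.

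Marker lists for cell cycle, HSCs and neutrophils were read beside these values, and none of their genes was called in TKO against WT (edgeR adjusted p = 1 for each). A list of 12 cell cycle genes summed to 2490 to 3350 CPM in WT, 2410 to 3940 CPM in δKO and 1730 to 1880 CPM in TKO, and the fitted level of all 12 was lower in TKO than in WT, where 51.2% of all genes were higher. At an unadjusted p under 0.05 there were 6 of them, as well as 6 of the 10 neutrophil genes (all lower, list median log2 fold change -2.97) and 3 of the 8 HSC genes (all higher, list median 0.90). A list of 8 HSC genes summed to 704 to 871 CPM in WT, 710 to 1520 CPM in δKO and 1080 to 1300 CPM in TKO, and δKO replicate 1 (1520 CPM) had the most. For the 10 neutrophil genes, all above 0 in each genotype, that library (261 CPM) was near the lowest TKO library (153 CPM). The part of neutrophil RNA, cycling cells and HSC content in the values of Elovl6, Fads1, Fads2 and Acaca was not tested.

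**Figure D5:**
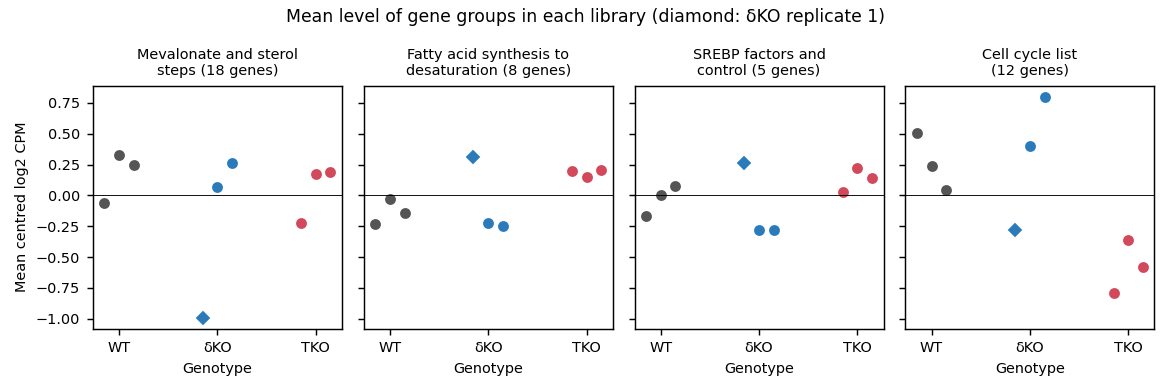
Mean centered log2 CPM of the 18 sterol genes, the 8 fatty acid genes, the 5 SREBP genes and 12 cell cycle genes in each library, by genotype, with a diamond for δKO replicate 1. TKO libraries lie above WT for the fatty acid genes and below WT for the cell cycle genes, and δKO replicate 1 lies at -0.99 for the sterol genes.

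The other genes of the pathway were read beside the set. Of 42 such genes (sterol and isoprenoid enzymes, SREBP processing and turnover, other fatty acid enzymes, and LXR, efflux and storage) all were tested, and none was called in any comparison. At an unadjusted p under 0.05 there was 1 in TKO against WT (lower), 5 in TKO against δKO (all lower) and 3 in δKO against WT (all higher), beside the 4.19%, 10.2% and 7.01% of all genes given above. Without δKO replicate 1 the counts were 2 higher and 1 lower, 1 higher and 8 lower, and 2 higher, with none called (smallest adjusted p 0.216), beside 7.61%, 12.2% and 5.65% of all genes. In TKO against WT it was Hacd2, a dehydratase of fatty acid elongation, at 92.5, 60.7 and 66.8 CPM in WT and 25.2, 54.9 and 30.3 CPM in TKO (log2 fold change -1.0, SE 0.388, edgeR adjusted p = 1). It acts in the same elongation cycle as Elovl6 and had the opposite sign, and the WT and TKO libraries of both did not overlap.

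The cholesterol exporters Abca1 and Abcg1, targets of the sterol sensor LXR, were both higher in all TKO than in all WT libraries (30.3 ± 6.57 and 56.4 ± 19.2 CPM for Abca1, 60.9 ± 21.7 and 104 ± 14.1 CPM for Abcg1, SD, n = 3), with log2 fold changes of 0.89 and 0.77. Neither passed the test (edgeR adjusted p = 1 for both), and against δKO their log2 fold changes were 0.39 and 0.00. The δKO libraries were at 67.4, 18.3 and 43.5 CPM for Abca1 and 211, 54.4 and 47.7 CPM for Abcg1, and without δKO replicate 1 the values were 0.86 (SE 0.426, edgeR adjusted p = 0.441) and 1.02 (SE 0.320, edgeR adjusted p = 0.299), with the TKO libraries of Abcg1 above both remaining δKO libraries. The list of 8 LXR, efflux and storage genes they belong to held 4 with a higher and 4 with a lower fitted level in TKO than WT, and Mylip, another LXR target, was at -0.33. Against δKO the lowest log2 fold changes of the other pathway genes were those of Mylip and Cyb5r3. Mylip, which degrades lipoprotein receptors, was at -1.34 (SE 0.430), and at -1.20 without δKO replicate 1. Cyb5r3, a reductase that supplies electrons to sterol and fatty acid desaturation, was at -1.11 (SE 0.341, edgeR adjusted p = 0.465) and -0.85. Without that library Erlin1, of SREBP processing and turnover, was lowest (-1.40, SE 0.306, edgeR adjusted p = 0.216), and its libraries did not overlap. Dhdds (-1.15) and Acsl1 (-1.07) also lay under Cyb5r3 there. With δKO replicate 1 Erlin1 was at -1.03 (SE 0.421) and overlapped. The TKO libraries of Tecr, a fatty acid enzyme, lay under all δKO libraries (-0.65, SE 0.202, and -0.64 without δKO replicate 1). Scd1, another gene for stearoyl-CoA desaturase that was chosen after its values were seen, was far below Scd2, at 0.748 ± 0.249 TPM in WT (SD, n = 3), and its libraries did not overlap between WT (1.15 to 2.29 CPM) and TKO (2.96 to 4.09 CPM).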

How the data were processed

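RNA was sequenced from sorted LT-HSCs in 9 libraries, 3 each of WT, δKO and TKO. The authors trimmed reads with Trim Galore 0.3.7 and aligned them with STAR 2.5.1b to mm10 (per the labels and the submitters' processing notes), and deposited whole-number read counts for 47643 genes with no normalization. How the 2 technical runs of a sample were joined is not given in the sources used here. The authors also deposited a normalized signal. In the 6 columns that carry the same name in both tables, it equaled the count divided by 1 factor per library (0.840 to 1.45).

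Genes were kept with edgeR's filterByExpr (count minimum 10, minimum total 15), and counts were scaled to library size by TMM factors (CPM). TPM was computed from counts and union exon length of the mm10 annotation. Main tests were made with edgeR 4.0.16's quasi-likelihood test (R 4.3.3) on the 9 libraries, with a mean for each genotype and without a block, although the study used DESeq2. Calls required a change over 2-fold and an adjusted p (Benjamini-Hochberg, over all genes tested) under 0.05. Residual degrees of freedom were 6 and the common biological coefficient of variation was 0.805. Standard errors were taken as the log2 fold change over the root of F. The pipeline was tested on simulated data.

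The members, the other lists and the comparisons were chosen with earlier results of these data known. Values with tests are given for members with an unadjusted p under 0.05, members whose libraries do not overlap, and the member with the smallest p of each role. Values in every library are given for the first of these and the SREBP genes, and those of Hmgcs1, Mvd, Mvk, Acss2, Acaca, Scd2, Fads1, Fads2, Nsdhl and Ebp were added after their values were seen.

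Depth was 31300343 to 60386097 counts per library, and the spread between libraries rather than counting error set the precision. The chi-square per gene between libraries of a genotype was 121 to 556, where counting error alone gives 1. Alternatives were other scaling factors (RLE and upper-quartile), the replicate number as a block, other filters, detected genes as a covariate, only the groups compared, DESeq2 1.42.0, the normalized signal as log2(value + 1) in limma 3.58.1, adjusted p alone and each library left out. After the data were examined, edgeR's newer quasi-likelihood method and DESeq2 without δKO replicate 1 were added.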

Additional observations from a re-analysis of the deposited data

How the results depend on the processing

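No alternative called a member in any comparison, except that DESeq2 without δKO replicate 1 called 2 in TKO against δKO. Over all genes, edgeR called 1 in TKO against WT, 0 in TKO against δKO and 1 in the controls compared with each other, where, in this order, DESeq2 called 125, 546 and 188 on the 9 libraries and 574, 267 and 194 on the groups compared. In TKO against WT edgeR called 9 with only the groups compared and 4 without δKO replicate 1. The number of members with an unadjusted p under 0.05 moved more. In TKO against WT it was 1, and became 2 with no filter on low counts or with the normalized signal in limma, 0 with detected genes as a covariate, 3 with only the groups compared, 5 with DESeq2 on those groups and 4 with DESeq2 without δKO replicate 1. The share of all genes at that p moved too, from 4.19% to 5.71%, 4.35%, 4.58%, 9.09%, 13.9% and 11.8% in the order given. Leaving out a library gave 0 to 3, with 0 without WT replicate 1, WT replicate 3 or TKO replicate 2, and 3 without δKO replicate 1 or the unnumbered δKO library. In TKO against δKO the 0 became 5 with DESeq2 without δKO replicate 1 (19.4% of all genes) and 0 to 4 with a library left out (4 without δKO replicate 1, 1 without δKO replicate 2 or TKO replicate 3, beside 12.2%, 17.3% and 7.43%). In δKO against WT the 0 became 1 with DESeq2 on the 9 libraries or the pair of groups, 3 with DESeq2 without δKO replicate 1 (12.4%, 10.3% and 11.4% of all genes), and 0 to 1 with a library left out (1 without δKO replicate 1, δKO replicate 2 or the unnumbered library, beside 5.65%, 16.1% and 8.87%). The median log2 fold change of the members kept its sign in TKO against WT (0.04 to 0.19 with a library left out) and TKO against δKO (0.07 to 0.30), and in δKO against WT ran from -0.15 without δKO replicate 1 to 0.23 without δKO replicate 2. The cause of these shifts was not tested.

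Same-numbered libraries did not deviate together (correlations of deviations -0.04 to 0.08), so the numbers do not pair them. The fit with the replicate block, in which the unnumbered δKO library formed a block of its own and so did not enter the comparisons, called 0 members in each comparison, gave 1 with an unadjusted p under 0.05 in δKO against WT, and changed no other of these counts.

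Among named members, signs turned for Mvd in TKO against δKO (-1.75 without TKO replicate 1 to 0.37 without δKO replicate 1, and 0.36 with DESeq2 without the latter) and for Tm7sf2 there (1.01 with the replicate block, 0.09 with the normalized signal in limma and 0.57 without the unnumbered δKO library). In δKO against WT they turned for Scap (-0.11 with detected genes as a covariate, -0.15 without δKO replicate 1 to 0.98 without WT replicate 1, and -0.13 with DESeq2 without δKO replicate 1). Lpin1, near 0 there, gave -0.60 with detected genes as a covariate, 0.02 with RLE factors and with either DESeq2 fit of all δKO libraries, 0.06 without WT replicate 1, 0.07 without WT replicate 3, -0.26 without the unnumbered δKO library, -0.19 without δKO replicate 1 and 0.33 without δKO replicate 2. Upper-quartile factors moved the median of all genes in TKO against δKO from -0.06 to 0.08 and in δKO against WT from 0.05 to -0.10, and the members' medians moved with it, to 0.28 and -0.14.

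Precision was limited by the spread over 3 libraries per genotype, with standard errors of the members from 0.243 to 1.28. Fdps (5 counts in TKO replicate 1), Mvd (31 in TKO replicate 3) and, in δKO replicate 1, Sc5d and Tm7sf2 (6 each), Insig2 (15) and Ebp (17) also had few counts in a library.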
